A study of Homo sapiens with 6 samples.

Results

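The cytosolic HSP70 and HSP110 chaperones were followed through hypertonic stress and recovery in U2OS cells, a human osteosarcoma line. The family was taken by gene symbol as 10 genes of the 19907 gene names in the count tables: HSPA8, HSPA1A, HSPA1B, HSPA1L, HSPA2, HSPA4, HSPA4L, HSPH1, HSPA9 and HSPA14. They stood on 11 of the 19940 rows, because HSPA14 had 2 rows of its own, and all 11 passed the filter on low counts. HSPA9 is the mitochondrial HSP70, so the description as cytosolic covers 9 of the 10 genes. All cells stably overexpressed GFP-DCP1A, a fusion of green fluorescent protein with a cofactor of mRNA decapping, and were kept under 100 μg/mL G418. Rescue cells had 4 h in hypertonic medium and then 4 h in isotonic medium, hypertonic cells had 4 h at 300 mM Na+ (growth medium with 10x PBS), and isotonic cells had 4 h at 150 mM Na+ after a mock addition of 1x PBS. Each group had 2 libraries of total RNA depleted of ribosomal RNA, and the design text gives the assessment of transcriptional changes as the aim. Rescue cells were harvested later than the others and there is no isotonic group of that later time, so rescue and later harvest cannot be told apart. Nothing in the labels says that replicate libraries were made from separate cultures or that the line was 1 clone. The p-values here set differences between groups only against the spread between libraries of the same label. That spread may be technical and is not known to be one between cultures.

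HSP70 proteins bind exposed hydrophobic stretches of unfolded proteins and release them in a cycle driven by ATP. J-domain proteins deliver clients and start ATP hydrolysis, and nucleotide exchange factors, among them the HSP110 proteins, reopen the site by removing ADP. HSP70 and HSP110 together pull apart protein aggregates in animal cells, and the inducible members are the best known targets of heat shock factor HSF1. Osmotic stress is a further inducer in kidney cells of the mouse, where the factor NFAT5 acts on an inducible HSP70 gene and where HSPA4L was described as an osmotic stress protein.

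Total counts were between 90196278 and 105991428 per library, and 3 counts, the floor used for detection, equalled 0.0283 to 0.0333 CPM (counts per 1000000 counts of the library). Levels below are CPM of the library's total count unless they are called TMM-scaled, and intervals and floors cover counting error only. The libraries did not group by their labels. Over 17388 gene rows, the SD of the log2 ratio between libraries was 0.195 for the libraries labelled hypertonic 1 and isotonic 2 and 0.183 for those labelled hypertonic 2 and isotonic 1. It was 0.952 between the libraries labelled hypertonic and 0.962 between those labelled isotonic, against 0.166 between those labelled rescue. Whether labels were exchanged between hypertonic and isotonic libraries was not tested, and every value of these groups, and every comparison between them, rests on the labels as given. The groups were kept as labelled, and the name of a library is the name on its label throughout. Member results are also given within a replicate number where their direction changed between the numbers, and for some other results. Of the 8 bone lineage markers, 4 were above 1 CPM in all libraries. They were COL1A1 (828 to 1170 CPM over the 6 libraries), SPARC (687 to 744 CPM), RUNX2 (17.2 to 77.7 CPM) and SPP1 (2.49 to 4.26 CPM). ALPL (0.732 to 2.82 CPM) and BGLAP (0.513 to 1.09 CPM) were low, and COL1A2 and IBSP did not exceed 0.174 CPM. No leukocyte marker (0 of 4) was above 1 CPM in all libraries, and the summed level of that list was 2.92 to 3.5 CPM in rescue, 0.589 to 2.95 CPM in hypertonic and 0.437 to 2.83 CPM in isotonic libraries. The epithelial list summed to 13.2 to 14.1 CPM in rescue, 4.15 to 5.66 CPM in hypertonic and 4.14 to 6.12 CPM in isotonic libraries, with 1 of 3 markers above 1 CPM throughout. The endothelial list, with 3 of 3 above 1 CPM, summed to 29.5 to 30.9 CPM in rescue, 7.81 to 28 CPM in hypertonic and 8.05 to 28.7 CPM in isotonic libraries, and the part of these levels in the results below was not tested. In bulk RNA, fewer cells of a type and less RNA per cell cannot be told apart.

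The promoters are shown for the constitutive gene HSPA8, whose level differed most between rescue and the other groups among the abundant members, and for the near-identical inducible pair HSPA1A and HSPA1B. The sequences are from RefSeq on GRCh38.p14, 5′ to 3′ on the strand of the gene: chr11:123062137-123062386 (minus strand) for HSPA8, chr6:31815393-31815542 (plus strand) for HSPA1A and chr6:31827588-31827737 (plus strand) for HSPA1B. Capitals mark pairs of inverted heat shock units, GAANNTTC or TTCNNGAA.
HSPA8: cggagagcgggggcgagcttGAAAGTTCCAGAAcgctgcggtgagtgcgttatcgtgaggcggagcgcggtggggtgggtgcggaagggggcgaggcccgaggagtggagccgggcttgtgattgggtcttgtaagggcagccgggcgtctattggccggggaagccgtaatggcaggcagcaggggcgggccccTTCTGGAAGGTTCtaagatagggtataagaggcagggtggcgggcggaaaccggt
HSPA1A: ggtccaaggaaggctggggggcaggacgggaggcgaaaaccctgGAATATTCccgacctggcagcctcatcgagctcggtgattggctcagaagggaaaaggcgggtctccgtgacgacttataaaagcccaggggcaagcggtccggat
HSPA1B: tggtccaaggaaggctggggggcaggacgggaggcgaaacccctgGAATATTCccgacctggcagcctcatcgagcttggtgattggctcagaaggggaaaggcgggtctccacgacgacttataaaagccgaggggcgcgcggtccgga
The window of HSPA8 held the 3-unit element GAANNTTCNNGAA, or its reverse complement, at 2 places, beginning 230 and 55 bases before the RefSeq start. This element was found in the 250 bases before the start in 0.441% of 35116 RefSeq promoters searched on both strands. HSPA1A and HSPA1B each held 1 pair GAANNTTC, beginning 106 and 105 bases before their starts. That pair occurred in 5.78% of promoters and the pair TTCNNGAA in 6.62%, and each 3-unit element contains 1 pair of either kind. The windows of HSPA1A and HSPA1B differed at 8 of the 149 bases that could be aligned, so 94.6% were the same. GENCODE begins its HSPA1A gene at 31815464, inside the window shown, and its HSPA8 gene reaches to 123063230, upstream of the window shown.

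Of the 10 members, 9 had a promoter entry, and HSPA14 had none. HSPA1L, which lies head to head with HSPA1A, held 1 pair GAANNTTC at 161 bases before its start. This pair is the same stretch of bases as the pair of HSPA1A, read on the other strand, and not a further site. In HSPA4L, 1 of the 3 entries held 1 pair TTCNNGAA at 170 bases. The CCAAT box, present in 32% of promoters, was found in HSPA8, HSPA1A, HSPA1B, HSPA1L (2 matches each), in HSPA2 and in 1 entry of HSPA4L (1 match each). The CCAAT matches of HSPA1L are likewise the same bases as those of HSPA1A. TGGAAA, the core of the sites that NFAT5 binds, was present in 18% of promoters. Among the members it was found in HSPA4, at 183 bases before the start, and in 2 of the 3 entries of HSPA4L, at 181 bases in one and at 17 and 7 bases in the other. HSPH1 and HSPA9 held none of the motifs searched. A match describes the letters of a window and does not show a bound site.

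**Figure D1:**
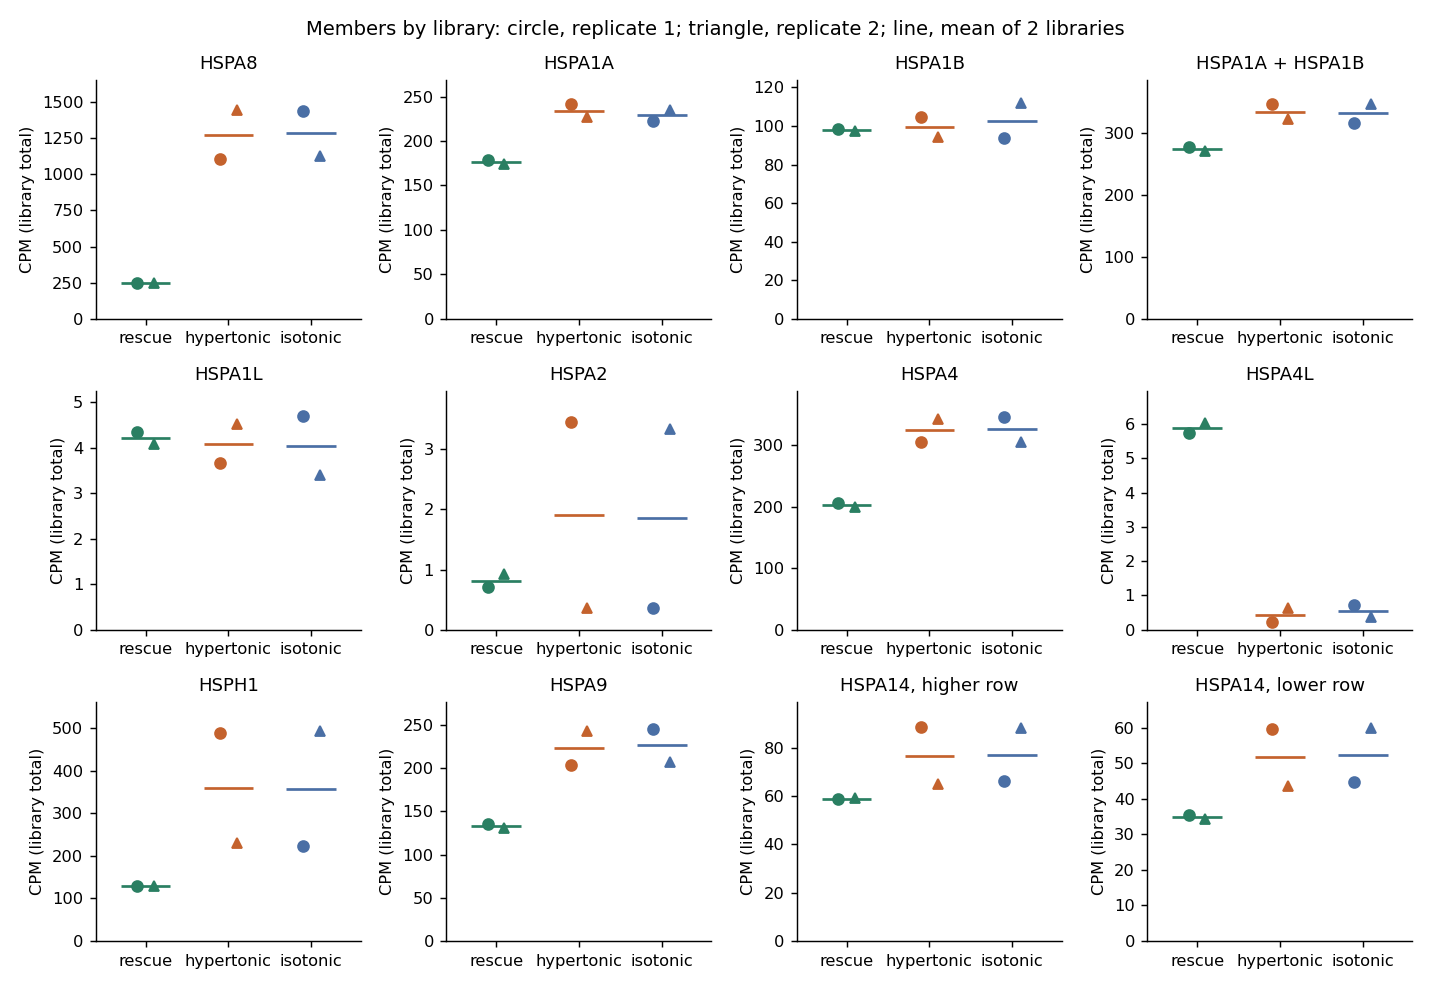
Level of each member in each library, in CPM of the library's total count, for rescue, hypertonic and isotonic libraries. Circles are replicate 1, triangles replicate 2, and lines the mean of 2 libraries. HSPA8 was near 247 CPM in rescue against 1105.5 CPM or more elsewhere, while HSPH1 and HSPA2 were high in the libraries labelled hypertonic 1 and isotonic 2.

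Per kilobase of annotated exons, and averaged over the 6 libraries, HSPA8 was the most abundant member at 193 CPM per kb, followed by HSPA1A at 85.9 and HSPA4 at 55.1. HSPA1B (39.7 CPM per kb), HSPH1 (33.6), HSPA14 (26.9, the higher row over the exons of the gene with the longer span) and HSPA9 (23.6) formed a middle range. That HSPA14 gene has 2.64 kb of exons and the other gene of this name 4.92 kb. The rows could not be assigned to either, and with 4.92 kb HSPA14 would stand below HSPA9. HSPA1L (1.62 CPM per kb), HSPA2 (0.264) and HSPA4L (0.197) were far lower. Over single libraries HSPA8 overlapped HSPA1A, the levels of HSPA4, HSPA1B and HSPH1 overlapped, as did those of HSPH1, HSPA14 and HSPA9, and HSPA2 overlapped HSPA4L. Per kilobase of whole gene span HSPA4, a gene of 54.49 kb, moved to the sixth place, with 5.21 CPM per kb, behind HSPH1 (10.3) and HSPA9 (8.85). The first place also changed within the data: in rescue libraries HSPA8 was at 50.7 to 51.4 CPM per exonic kb and HSPA1A at 70.1 to 72.0, whereas HSPA8 was at 227.9 or more in every hypertonic and isotonic library.

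In rescue against isotonic cells, 4 of the 11 member rows fell (HSPA8, HSPA9, HSPA4 and HSPA1A) and 1 rose (HSPA4L), and the other 6 rows did not pass the test. A row passed at a two-sided Benjamini-Hochberg adjusted p of at most 0.05 in edgeR's quasi-likelihood test over 18208 genes. The fit takes the spread of a row over all groups together. The wide differences between libraries of the same hypertonic or isotonic label thus enter every p-value, also those of rows that did not pass. Over all genes, 13.5% were lower and 9.61% higher in this comparison. The same 5 rows passed in rescue against hypertonic cells, again 4 lower and 1 higher, where 13.8% of all genes were lower and 9.86% higher. Both comparisons use the same rescue libraries, so the second is no independent repeat. The median log2 fold change of the 11 rows was -0.89 against isotonic and -0.88 against hypertonic cells, beside -0.02 over all genes in each. TMM scaling placed the median of all genes near 0, while scaling by library totals placed it at 0.272 and 0.28, and upper quartile scaling at 0.193 and 0.192. The members' median was then -0.585 and -0.570 with library totals and -0.678 and -0.673 with upper quartile scaling. The share of higher genes among all calls against isotonic cells was 41.6% with TMM, 65.2% with library totals and 59.8% with upper quartile scaling (against hypertonic cells 41.7%, 65.8% and 59.6%). With 2 libraries a group, no member row passed against isotonic cells once rescue 1, rescue 2, isotonic 1 or isotonic 2 was left out, and none passed against hypertonic cells once a rescue or a hypertonic library was left out. No other gene passed in those fits either.

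**Figure D2:**
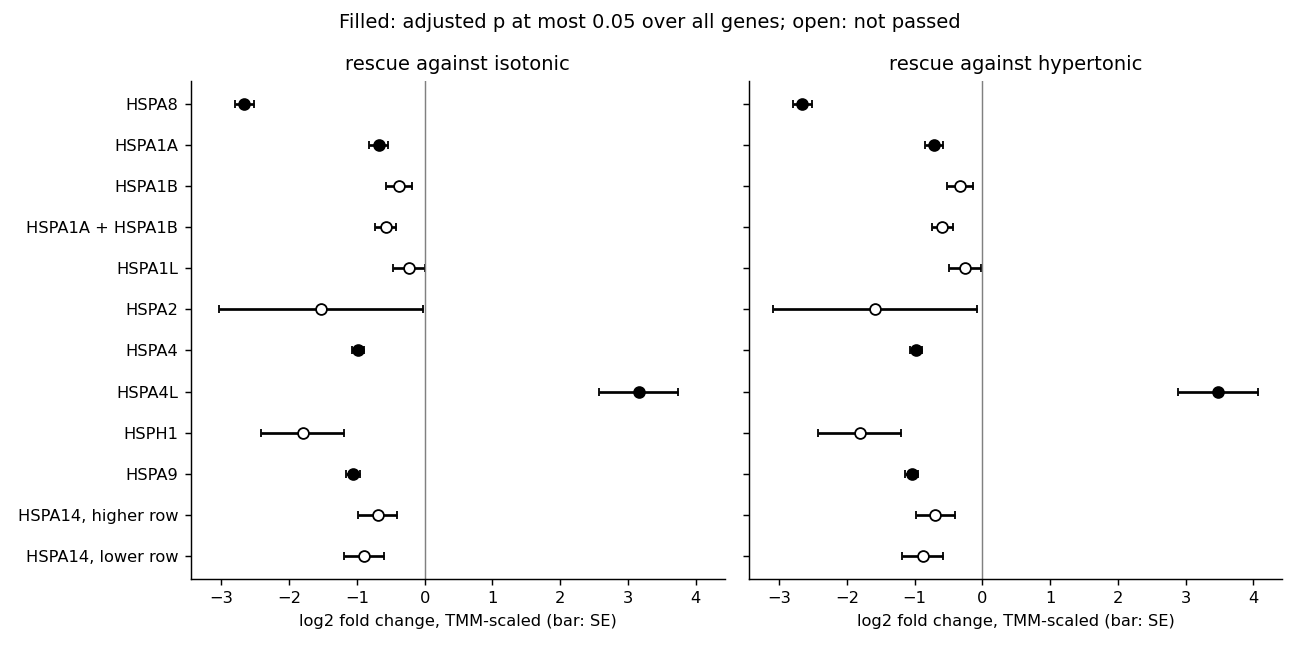
TMM-scaled log2 fold change of each member in rescue against isotonic (left) and rescue against hypertonic cells (right), with the standard error as a bar. Filled points passed an adjusted p of 0.05 over all genes and open points did not. HSPA8, HSPA1A, HSPA4 and HSPA9 were filled below 0 and HSPA4L above 0, and the bars of HSPA2 and HSPH1 were the widest.

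HSPA8 encodes the constitutive Hsc70, which folds new proteins, uncoats clathrin vesicles and carries clients to chaperone-mediated autophagy. It was at 249.1 and 245.6 CPM in rescue libraries, compared with 1105.5 and 1446.0 CPM in hypertonic and 1443.0 and 1127.4 CPM in isotonic libraries. Both rescue libraries were below every other library, while the hypertonic and isotonic values interleaved. HSPA8 averaged 247.4 ± 2.48 CPM in rescue, 1276 ± 241 CPM in hypertonic and 1285 ± 223 CPM in isotonic cells (SD, n = 2 each). The TMM-scaled log2 fold change was -2.66 (SE 0.14) against isotonic cells, 6.34-fold lower, with an adjusted p of 0.00834 in edgeR, and -2.66 against hypertonic cells, 6.32-fold lower, with an adjusted p of 0.00832. Between single libraries, by library totals, isotonic exceeded rescue by 4.52 to 5.87-fold. Against isotonic cells the log2 fold change was -2.77 with the number 2 libraries of both other groups left out and -2.56 with their number 1 libraries left out. HSPA8 contains the small nucleolar RNA genes SNORD14C, SNORD14D and SNORD14E, whose reads may be counted with it.

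HSPA8 set much of the level of the whole family. In the sums of this paragraph HSPA14 was entered by its higher row only. The 10 members summed to 1065 and 1046 CPM in rescue libraries, compared with 2545 and 2654 CPM in hypertonic and 2644 and 2574 CPM in isotonic libraries, so the sums of the other 4 libraries lay close together. HSPA8 made up 23.4% and 23.5% of that sum in rescue, 43.4% and 54.5% in hypertonic and 54.6% and 43.8% in isotonic libraries. Without HSPA8 the sum was 815.5 and 800.3 CPM in rescue, 1440 and 1208 CPM in hypertonic and 1201 and 1446 CPM in isotonic libraries. Rescue was the lowest group on both sums.

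HSPA1A and HSPA1B encode almost the same inducible HSP70 and lie 9789 bases apart on chromosome 6. Of the 100-base windows of their transcripts, 69.9% in HSPA1A and 72.7% in HSPA1B had an exact copy in another gene, each other foremost, so the split of reads between the 2 rows is uncertain. HSPA1A was at 178.5 and 173.8 CPM in rescue, compared with 241.1 and 227.4 CPM in hypertonic and 222.6 and 234.8 CPM in isotonic libraries, with rescue below all others. Its log2 fold change was -0.68 (SE 0.14) against isotonic and -0.72 against hypertonic cells, with edgeR adjusted p of 0.0328 and 0.0286. HSPA1A no longer passed with upper quartile scaling, at adjusted p of 0.0815 and 0.0667 in edgeR.

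HSPA1B was at 98.3 and 97.4 CPM in rescue, 104.8 and 94.5 CPM in hypertonic and 93.6 and 111.8 CPM in isotonic libraries. Its groups overlapped, and neither comparison passed (edgeR adjusted p = 0.228 against isotonic and 0.272 against hypertonic cells). Within the numbers 1 and 2 its TMM-scaled log2 fold change against isotonic cells was -0.157 and -0.565, and that of the sum of both rows was -0.428 and -0.712. The sum of both rows does not depend on the split between them. It was 276.8 and 271.2 CPM in rescue, compared with 345.8 and 321.9 CPM in hypertonic and 316.3 and 346.6 CPM in isotonic libraries. Rescue was lowest, yet the summed row missed the threshold, with a log2 fold change of -0.58 (SE 0.15, edgeR adjusted p = 0.0602) against isotonic and -0.59 (adjusted p = 0.0555) against hypertonic cells. DESeq2 called the sum lower in both comparisons (adjusted p = 0.0175 and 0.0143), and limma voom called it lower against hypertonic cells only (adjusted p = 0.0451). HSPA1A took 64.5% and 64.1% of the sum in rescue, compared with 69.7% and 70.6% in hypertonic and 70.4% and 67.7% in isotonic libraries. No library showed a summed level of the inducible pair above 346.6 CPM. The sum averaged 333.9 ± 16.9 CPM in hypertonic and 331.4 ± 21.5 CPM in isotonic libraries (SD, n = 2 each). Each of these means rests on libraries that differed within their label, so their closeness does not show that the treatments were alike.

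HSPA1L and HSPA2 are testis-enriched HSP70 genes, of which HSPA2 is needed for meiosis of male germ cells in the mouse. HSPA1L was at 4.34 and 4.08 CPM in rescue, 3.66 and 4.53 CPM in hypertonic and 4.71 and 3.39 CPM in isotonic libraries. These values overlapped in all groups and neither rescue comparison passed (edgeR adjusted p = 0.52 and 0.472), and the sign of the fold change turned with library totals as the scale. HSPA2 was at 0.708 and 0.924 CPM in rescue, compared with 3.45 and 0.367 CPM in hypertonic and 0.361 and 3.34 CPM in isotonic libraries. The underlying counts were 75 and 85 in rescue, 350 and 38 in hypertonic and 38 and 301 in isotonic libraries. The 95% Clopper-Pearson interval of the 3.45 CPM was 3.10 to 3.83 CPM, and that of the 0.367 CPM was 0.26 to 0.504 CPM. HSPA2 was high in hypertonic 1 and isotonic 2, low in hypertonic 2 and isotonic 1, and between them in rescue, and neither rescue comparison passed (edgeR adjusted p = 0.508 and 0.494).

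HSPA4, HSPA4L and HSPH1 are the HSP110 members, the exchange factors that work with HSP70 on aggregates. HSPA4 (Apg-2) was at 205.1 and 199.2 CPM in rescue, compared with 305.0 and 342.5 CPM in hypertonic and 345.2 and 305.5 CPM in isotonic libraries. Rescue lay below all other libraries, and HSPA4 fell with a log2 fold change of -0.98 (SE 0.088) against both isotonic cells (edgeR adjusted p = 0.00901) and hypertonic cells (adjusted p = 0.00922). Within the replicate numbers 1 and 2 the log2 fold change against isotonic cells was -0.99 and -0.97.

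HSPA4L (Apg-1), which is abundant in testis of the mouse, was the 1 member that rose in rescue. It was at 5.75 and 6.05 CPM in rescue libraries (609 and 556 counts), against 0.237 and 0.638 CPM (24 and 66 counts) in hypertonic and 0.721 and 0.366 CPM (76 and 33 counts) in isotonic libraries. Both rescue libraries were above all others, and hypertonic and isotonic values overlapped. By the same comparison of ranks, 46.9% of the 18208 genes tested were above all other libraries in both rescue libraries. Rows without any count numbered 690 and 699 in rescue, 1248 and 1653 in hypertonic and 1627 and 1270 in isotonic libraries. The part of this wider difference in the rise of HSPA4L was not tested. The 95% Clopper-Pearson interval of rescue 1 was 5.30 to 6.22 CPM, against 0.152 to 0.352 CPM in hypertonic 1 and 0.568 to 0.903 CPM in isotonic 1. The fitted log2 fold change was 3.16 (SE 0.585) against isotonic cells, 8.94-fold higher, with an edgeR adjusted p of 0.0274, and 3.48 against hypertonic cells, 11.1-fold higher, with an adjusted p of 0.0229. In the fits of numbers 1 and 2 HSPA4L was 6.99-fold and 12.4-fold higher against isotonic cells and 19.1-fold and 7.86-fold higher against hypertonic cells. Even in rescue, HSPA4L was at 0.495 to 0.520 CPM per exonic kb, beside 38.7 to 39.8 for HSPA4. Pseudogenes and an antisense gene overlap HSPA4L in the annotation, and whether reads were assigned by strand is not given in the sources used here.

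HSPH1 (Hsp105) was at 128.8 and 128.6 CPM in rescue, compared with 488.8 and 229.8 CPM in hypertonic and 222.5 and 492.0 CPM in isotonic libraries. Rescue was below every other library, but the values within each other group differed more than 2-fold. HSPH1 did not pass, with a log2 fold change of -1.80 (SE 0.61, edgeR adjusted p = 0.105) against isotonic and -1.81 (adjusted p = 0.104) against hypertonic cells. DESeq2 called it lower, with adjusted p of 0.0151 and 0.0143. Within the numbers 1 and 2 its log2 fold change against isotonic cells was -1.01 and -2.31.

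HSPA9, known as mortalin, drives import of proteins into the mitochondrial matrix. It was at 135.2 and 131.1 CPM in rescue, compared with 204.1 and 243.5 CPM in hypertonic and 245.6 and 206.7 CPM in isotonic libraries. Rescue was below all others, with a log2 fold change of -1.06 (SE 0.10, 2.08-fold lower) and an edgeR adjusted p of 0.0094 against isotonic cells, and -1.05 with an adjusted p of 0.00939 against hypertonic cells. HSPA9 hosts the small nucleolar RNA gene SNORD63 within its span.

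HSPA14 (Hsp70L1), which works at the ribosome in a complex with the J-domain protein DNAJC2, had 2 rows that can be told apart here by their level only. GENCODE lists 2 genes of this name on chromosome 10, at 14838160 to 14847018 and at 14838164 to 14871741, which overlap each other and the antisense start of CDNF. The higher row was at 58.8 and 59.1 CPM in rescue, compared with 88.5 and 64.9 CPM in hypertonic and 66.0 and 88.1 CPM in isotonic libraries. The lower row was at 35.4 and 34.2 CPM in rescue, compared with 59.8 and 43.6 CPM in hypertonic and 44.6 and 59.8 CPM in isotonic libraries. On both rows rescue was below every other library, yet neither row passed (edgeR adjusted p = 0.159 and 0.101 against isotonic cells, 0.159 and 0.103 against hypertonic cells). DESeq2 called the lower row lower in both comparisons, with adjusted p of 0.038 and 0.0403. Within the numbers 1 and 2 the log2 fold change against isotonic cells was -0.385 and -0.953 on the higher row and -0.579 and -1.154 on the lower row.

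Between hypertonic and isotonic cells, grouped as labelled, no member row passed: 0 were higher and 0 lower, and of all genes 0% were higher and 0% lower in edgeR. At an unadjusted p under 0.05, edgeR gave 52 of all genes and 0 members, DESeq2 42 genes and 0 members, and limma voom 44 genes and 0 members. DESeq2 called 1 gene lower after adjustment, which was not a member, and limma voom called none. The grouped log2 fold changes of the members lay between -0.32 and 0.05. These group means sit between libraries that differ, so the ratio within each replicate number is given as well, as a description of pairs of single libraries.

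**Figure D3:**
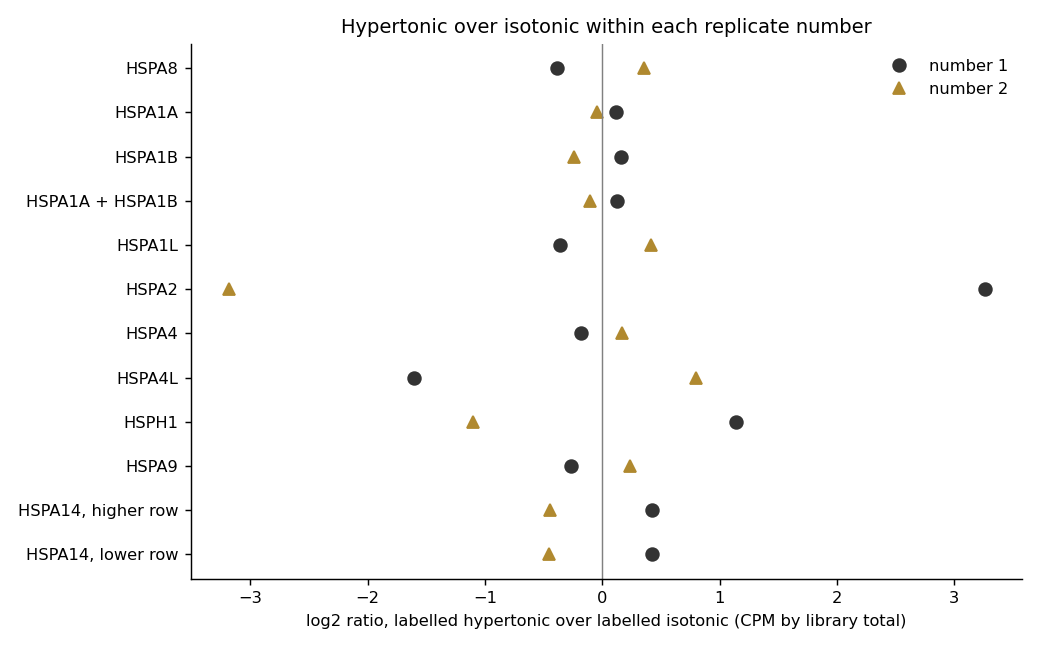
Log2 ratio of each member, the library labelled hypertonic over the library labelled isotonic of the same replicate number, by library totals. Circles are number 1 and triangles number 2. Each member's pair of points lies on opposite sides of 0, widest for HSPA2 (3.26 and -3.19) and narrowest for HSPA1A (0.12 and -0.05).

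In number 1, HSPH1 was 2.20-fold and HSPA2 9.57-fold higher in the hypertonic than in the isotonic library (log2 ratio 1.14 and 3.26 by library totals). In number 2 both ratios had the opposite sign (-1.10 and -3.19). HSPA4L went the other way, with a log2 ratio of -1.61 in number 1 and 0.80 in number 2, as did HSPA8 (-0.38 and 0.36), HSPA9 (-0.27 and 0.24), HSPA1L (-0.36 and 0.42) and HSPA4 (-0.18 and 0.17). The HSPA14 rows had ratios of 0.42 and 0.42 in number 1 and -0.44 and -0.46 in number 2. The inducible pair had ratios of 0.12 and -0.05 for HSPA1A, 0.16 and -0.24 for HSPA1B, and 0.13 and -0.11 for their sum. All 12 rows, the sum included, had opposite signs in the 2 numbers. With TMM scaling the signs were opposite as well, and the narrowest ratios were those of HSPA4 (-0.02 and 0.02), with HSPA1A at 0.27 and -0.19. Over 17388 gene rows hypertonic 1 was like isotonic 2 (SD of the log2 ratio 0.195) and hypertonic 2 like isotonic 1 (0.183). The ratio of number 2 is thus close to the mirror of that of number 1 for genes in general. The opposite signs describe these libraries and are no result about the members. The share of all genes with opposite signs was not counted.

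A fit without the hypertonic and isotonic library of number 2, which takes the spread of each lone library to be that between the rescue libraries, called 6 member rows higher and 2 lower (HSPA8 and HSPA4L) in hypertonic 1 than in isotonic 1. In that fit 31.6% of all genes were higher and 32.6% lower. The fit of number 2 called 1 member row higher (HSPA8) and 6 lower, where 32.9% of all genes were higher and 31% lower. These edgeR fits compare single libraries and not the treatments.

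Both rescue libraries lay below all 4 other libraries on 7 of the 11 member rows (HSPA8, HSPA1A, HSPA4, HSPH1, HSPA9 and both of HSPA14) and above them on 1 (HSPA4L), by library totals. By the same rule, which uses ranks and no test, 21.8% of the 18208 genes tested were below and 46.9% above the other libraries in both rescue libraries. Without number 2, 9 member rows were lower and 2 higher in rescue than in isotonic 1, and without number 1, 9 were lower and 1 higher in rescue than in isotonic 2. Of all genes 38.6% were lower and 40.5% higher in the first of these edgeR fits, and 40.1% lower and 40.7% higher in the second. Against hypertonic 1, 9 member rows were lower and 1 higher in rescue (40.5% and 41% of all genes), and against hypertonic 2, 9 were lower and 2 higher (38.6% and 40.5% of all genes). HSPA2 was the member whose direction depended on the number, with a log2 fold change of 0.95 in number 1 and -2.41 in number 2 against isotonic cells.

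The partners of the HSP70 cycle were read from lists of genes that share its steps. In rescue against isotonic cells, 6 of 7 genes of the relay to HSP90 were lower and none higher, beside the 13.5% of all genes that were lower. AHSA1, which stimulates the ATPase of HSP90, was at 85.2 and 80.6 CPM in rescue, compared with 134 and 145 CPM in hypertonic and 149 and 133 CPM in isotonic libraries (log2 fold change -1.06 against isotonic cells, edgeR adjusted p = 0.00898). PTGES3 (p23), the co-chaperone of closed HSP90, fell by 0.96 on the log2 scale (adjusted p = 0.00924 in edgeR), and ST13 (Hip), which holds HSP70 in its ADP state, fell by 0.62 (adjusted p = 0.0205). Of the 9 J-domain partners, 3 were lower and 0 higher. They were DNAJC2, the ribosomal partner of HSPA14 (-1.22, adjusted p = 0.0127), DNAJC7 (-0.80, adjusted p = 0.0128) and DNAJA2 (-0.88, adjusted p = 0.0218). 

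Of the 7 nucleotide exchange factors, 1 was lower and 0 higher, HSPBP1 (log2 fold change -0.73, edgeR adjusted p = 0.0314). Of 8 mitochondrial partners of HSPA9, 1 was lower and 0 higher, TIMM44, which anchors HSPA9 at the import channel (-1.08, adjusted p = 0.0122). Since 13.5% of all genes were lower and 9.61% higher, the 1 lower gene in either of these lists is near the share of all genes. Of 6 further HSP70 superfamily genes, 2 were lower and 1 higher: HSPA12A was 1.64-fold higher (adjusted p = 0.0195), HYOU1, the exchange factor of the endoplasmic reticulum, was 1.38-fold lower (adjusted p = 0.0471), and HSPA12B, at 2.53 to 6.21 CPM, was also lower. None of 4 heat shock factors passed. HSF1 was at 95.8 and 92.2 CPM in rescue, compared with 179.5 and 122.4 CPM in hypertonic and 124.0 and 170.1 CPM in isotonic libraries, lower in both rescue libraries than in any other (edgeR adjusted p = 0.104 against isotonic cells). With library totals or upper quartile scaling the calls of HSPBP1, HYOU1 and HSPA12B ended, and 3 to 5 genes of the HSP90 relay passed, all lower. The counts of every list with TMM were the same in rescue against hypertonic cells, and no list gene passed in hypertonic against isotonic cells. The median log2 fold change in rescue against isotonic cells was -0.79 for the HSP90 relay, -0.84 for the J-domain partners, -0.73 for the exchange factors, -0.33 for the mitochondrial partners, -0.38 for the further superfamily genes and -0.45 for the heat shock factors, beside -0.02 over all genes.

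**Figure D4:**
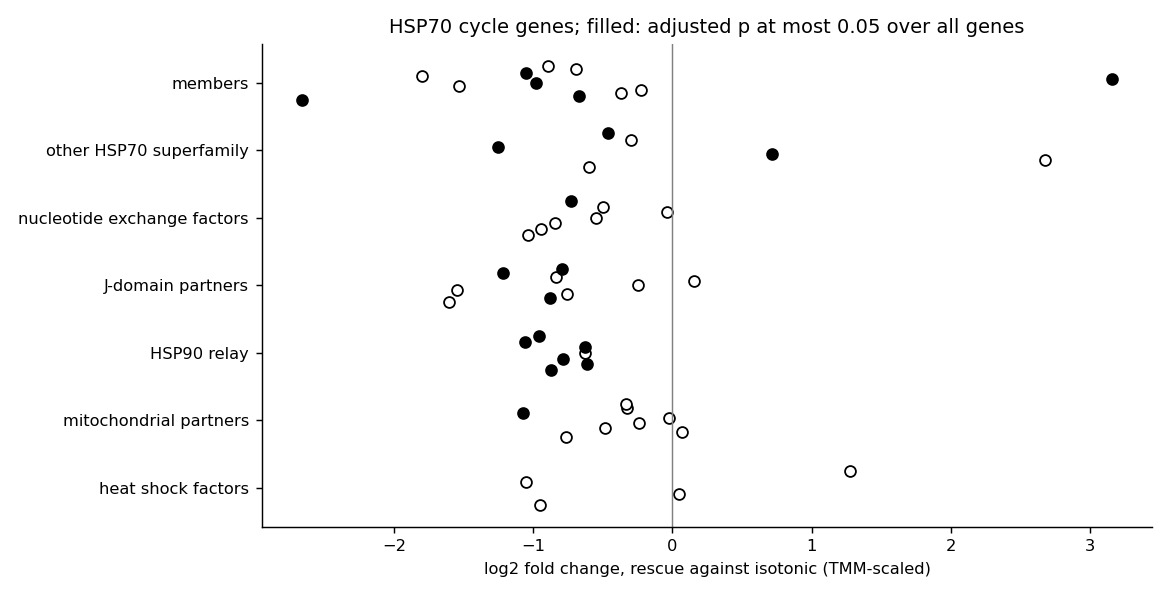
TMM-scaled log2 fold change in rescue against isotonic cells for the members and 6 lists of HSP70 cycle genes, 1 point a gene or row. Filled points passed an adjusted p of 0.05 over all genes. In the HSP90 relay 6 of 7 points were filled, all below 0, and none of the 4 heat shock factors was filled.

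The HSP40 gene DNAJB1 and the inducible gene HSPA6, which the naming rule did not choose, were looked at after their values were seen. DNAJB1 was at 111.3 and 104.6 CPM in rescue, compared with 338.4 and 163.2 CPM in hypertonic and 169.2 and 336.4 CPM in isotonic libraries, high in the same libraries as HSPH1, and did not pass (edgeR adjusted p = 0.122). HSPA6 was at 1.83 and 1.32 CPM in rescue, compared with 0.0395 and 0.251 CPM in hypertonic and 0.342 and 0.0665 CPM in isotonic libraries, and did not pass (adjusted p = 0.157).

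The genes whose pattern over the 6 libraries was most like that of a member were ranked by the root mean square difference of centred log2 CPM, over 11601 genes. For HSPA8 they were HR (0.170), RASL10B (0.203), KIAA1147 (0.226) and ZNF853 (0.238), all much less abundant than HSPA8. For HSPH1 they were TAF5L (0.034), ANKRD1 (0.063), KCNJ14 (0.065) and EML5 (0.070). TAF5L was at 32.9 and 33.2 CPM in rescue, compared with 118.7 and 57.1 CPM in hypertonic and 57.3 and 121.4 CPM in isotonic libraries. For the sum of HSPA1A and HSPA1B, among 11600 genes, they were UTP23 (0.011), FGFR4 (0.018), GOLPH3 (0.018) and HSPA5 (0.022), the HSP70 of the endoplasmic reticulum. HSPA5 was at 541 and 510 CPM in rescue, compared with 675 and 616 CPM in hypertonic and 613 and 680 CPM in isotonic libraries. This measure grows with the size of a member's own differences, so its values do not compare between members.

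HSPA2 and HSPA4L, the members with the widest relative differences, were also set beside the genes next to them, a choice made after their values were seen. ZBTB1 ends 2215 bases upstream of HSPA2 on the same strand. It was at 111.6 and 112.9 CPM in rescue, compared with 222.0 and 77.4 CPM in hypertonic and 79.5 and 223.4 CPM in isotonic libraries, high in the same libraries as HSPA2. PPP1R36, downstream of HSPA2 on the same strand, was at 0.906 and 0.870 CPM in rescue, compared with 0.838 and 0.396 CPM in hypertonic and 0.209 and 0.654 CPM in isotonic libraries. It too was higher in hypertonic 1 and isotonic 2 than in hypertonic 2 and isotonic 1. HSPA2 also overlaps the antisense gene AL049869.3, and the part of these neighbours in the counts of HSPA2 was not tested.

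**Figure D5:**
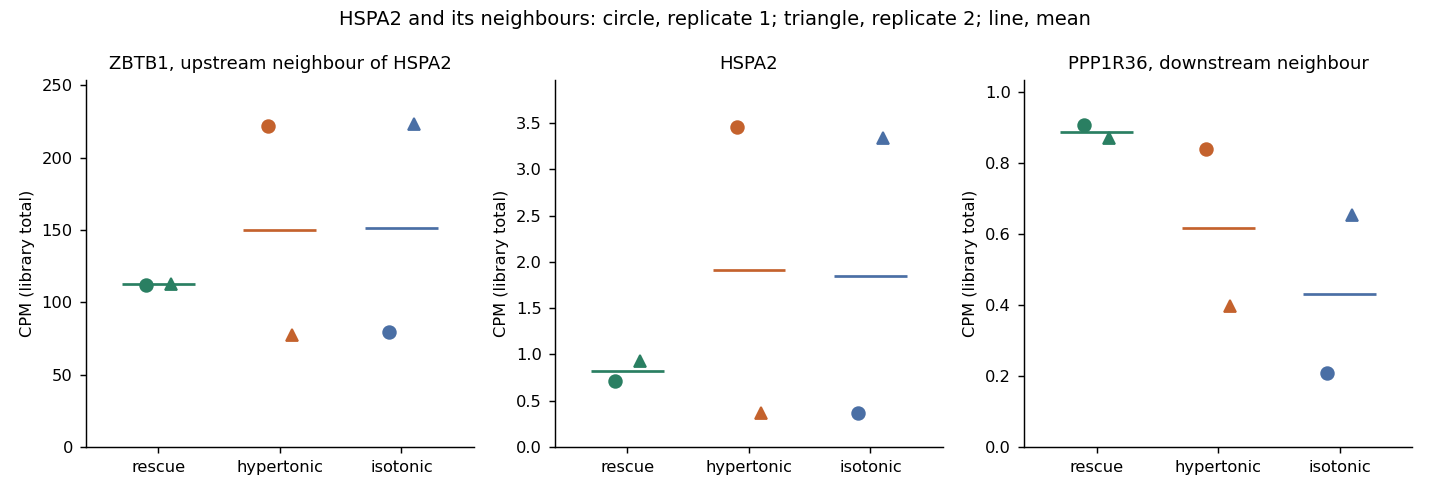
Level of HSPA2 and of the genes on either side of it in each library, in CPM of the library's total count, for rescue, hypertonic and isotonic libraries. Circles are replicate 1, triangles replicate 2, and lines the mean. ZBTB1 and HSPA2 were both highest in hypertonic 1 and isotonic 2, while PPP1R36 was highest in rescue.

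Upstream of HSPA4L, at 7522 bases on the same strand, SLC25A31 was at 0.944 and 1.25 CPM in rescue, compared with 0.158 and 0.0386 CPM in hypertonic and 0.0380 and 0.189 CPM in isotonic libraries. Like HSPA4L it was highest in both rescue libraries, but it was higher in hypertonic 1 and isotonic 2 than in hypertonic 2 and isotonic 1, where HSPA4L was the higher. The downstream neighbour PLK4, at 39.4 and 39.9 CPM in rescue, 31.3 and 53.6 CPM in hypertonic and 52.5 and 30.6 CPM in isotonic libraries, had rescue between the other values. The part of the neighbours in the rise of HSPA4L was not tested.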

How the data were processed

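Total RNA depleted of ribosomal RNA was sequenced in 6 libraries with 100-nt reads, per the labels' protocols. The submitters' processing notes name bcl2fastq, TopHat2, Bowtie2, bedtools and the build GRCh38 (hg38); versions, roles, annotation and use of strand were not given in the sources used here. For each library the authors deposited a table of raw counts by gene, with no normalization.

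Groups followed the labels. The members, the lists and the alternatives were chosen with earlier results of these data known. Of 33 names on several rows, HSPA14 is the only member and was kept as 2 rows. The family sums took its higher row only. All 6 libraries entered 1 edgeR (4.0.16, R 4.3.3) quasi-likelihood fit with a mean per group. Low rows were removed by filterByExpr, TMM factors scaled the libraries, and dispersions were robust. It tested 18208 genes, with 3 residual degrees of freedom and a biological coefficient of variation of 38.4%, and p-values were adjusted over all of them. That spread is shared by all groups. It holds the difference between libraries of the same label (SD of the log2 ratio 0.952 in hypertonic, 0.962 in isotonic and 0.166 in rescue). DESeq2 (1.42.0), limma voom (3.58.1), other scalings, no filter, left-out libraries, a replicate block and fits of single replicate numbers were alternatives. Before use, the edgeR code was tested on simulated data of known fold changes. The simulated libraries had less spread than these and no crossing of hypertonic and isotonic libraries. That test therefore checks the code and not how the method performs on these data. CPM used library totals of 90196278 to 105991428 counts, which limit the precision of HSPA2, HSPA4L and HSPA1L most.

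All members were named. From each list of other HSP70 cycle genes up to 3 were named, those with a call and a mean level of 5 CPM or more, by smallest adjusted p, with HSF1 always, and for HSPA8, HSPH1 and the HSPA1A and HSPA1B sum the 4 genes of most similar pattern with a mean of at least 10 CPM. Gene spans and overlaps came from GENCODE and promoters from RefSeq, both for GRCh38; exact 100-base windows were compared among GENCODE transcripts. Library-pair ratios used CPM plus 0.1 over rows with at least 100 summed counts. Whether the replicate numbers pair samples was checked by the correlation of their deviations from the group means. It was -0.961 for hypertonic and isotonic, 0.043 for rescue and hypertonic and -0.030 for rescue and isotonic. The first value rests on the labels as given, under which hypertonic 1 was like isotonic 2 and hypertonic 2 like isotonic 1. Whether labels were exchanged was not tested. The check therefore cannot decide whether the numbers pair samples, and they were not taken as pairs.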

Additional observations from a re-analysis of the deposited data

How the results depend on the processing

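Of the member results against isotonic cells, 172 kept direction and call over the alternatives, 15 newly passed, 26 no longer passed and 3 changed sign; against hypertonic cells these were 171, 16, 26 and 3. The 5 member rows called in each rescue comparison were 5 with RLE scaling, library totals, no filter, limma voom, non-robust dispersion, the compared groups only, or without RPS29, PTPRD and ANKRD28. They were 4 with upper quartile scaling or the summed pair and 7 with DESeq2, which over all genes called 3280 higher and 3761 lower against isotonic cells, beside 1749 and 2453 in edgeR, and 3317 and 3788 against hypertonic cells, beside 1796 and 2508. With the replicate block the count was 0 in both rescue comparisons, as it was for hypertonic against isotonic cells; HSPA8 then had an edgeR adjusted p of 0.0832 against isotonic and 0.0817 against hypertonic cells. The block costs 1 residual degree of freedom, and whether the numbers pair these libraries is not known. Leaving out 1 library gave 0 to 5 member rows in each rescue comparison: 0 without a library of either compared group, and 5 without one of the third group. HSPA8 then ranged in adjusted p from 0.0262 to 0.169 against isotonic cells, and its log2 fold change from -2.77 to -2.56. Fits of number 1 called 11 member rows against isotonic and 10 against hypertonic cells, and 8 for hypertonic against isotonic cells; fits of number 2 called 10, 11 and 7, with the rescue libraries alone giving the spread. Signs changed for HSPA1L with library totals (log2 fold change 0.055 against isotonic and 0.040 against hypertonic cells) and for HSPA2 in the number 1 fit against isotonic cells (0.946) and the number 2 fit against hypertonic cells (0.911); leaving out 1 library, HSPA2 ranged from -2.405 to 0.952 and from -2.459 to 0.918 in these comparisons. Pairing hypertonic 1 with isotonic 2 and hypertonic 2 with isotonic 1 as blocks, an alternative chosen after seeing the data, called 6 genes higher and 15 lower in hypertonic against isotonic cells, 0 of them members. Grouped hypertonic against isotonic values of the members lay between -2.45 and 2.54 over 17 alternatives, with a smallest adjusted p of 0.885. The cause of these changes was not tested. Depth limits HSPA2 and HSPA4L, with as few as 38 and 24 counts in a library.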
